A study of Mus musculus with 6 samples.

Results

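Collagens are the proteins that give the lung its tensile frame and the sheets on which its epithelium and vessels rest. The genes described here are those whose symbol is Col, a number, a and a number, which left 42 genes with 82 probe sets among 18193 genes of the array. Each gene was read from its probe set of highest mean log2 signal over the 6 arrays. Of the 42, 27 lay above a brightness limit of 497.8 signal units, the median of all probe sets, and entered the test of 10972 genes. They were sorted into 11 fibrillar, 8 basement membrane and 23 other collagens, of which 7, 8 and 12 were tested.

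Whole lungs of mouse embryos at E18.5, just before birth, were profiled on MOE430 V2 arrays from a mixed FVB/N and B6 strain. In the group Scap_ko (3 arrays) Scap, whose protein escorts SREBPs to the site of their activation, was removed from respiratory epithelial cells (Scap d/d), and Scap_control (3 arrays) were labelled as controls. The labels and series text used here name neither a Cre driver nor the control alleles, and do not say whether replicates are separate animals. The tests therefore weigh differences against array-to-array spread alone, which may be technical. The lung was measured whole while the deletion was epithelial, and most fibrillar collagen is made by mesenchymal cells. In whole tissue, fewer cells of a type and less RNA per cell cannot be told apart.

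A collagen molecule is a triple helix of 3 chains, each a long run of short repeats that begin with glycine. Fibrillar collagens pack into cables outside the cell after their end pieces are cut off, collagen IV chains link into the basement membrane network, and smaller families coat fibrils, form beaded filaments or span the cell membrane. In fetal lung the fibrils surround airways and vessels, and the basement membrane lies between epithelium and capillary.

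Scap itself read 7264, 4195 and 3079.7 on the control arrays and 1847, 3286 and 2702 on the Scap_ko arrays. Control replicate 3 lay below Scap_ko replicate 2, so the groups overlapped (log2 difference -0.84, SE 0.33, limma adjusted p = 0.808). No label used here says where its probes lie relative to the deleted part. The arrays numbered 3 of both groups lie apart from the other 4 on the first principal component (36.6% of the variance).

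Collagen differences were mostly small, and no collagen gene passed the test. Of 27 tested members, 0 had a limma adjusted p under 0.05, a threshold that 0.00911% of all genes tested passed. At an unadjusted p of 0.05, 1 member read higher (Col27a1; 2.88% of all genes did) and 1 lower (Col6a4; 3.04% of all genes), together 7.41% of those tested against 5.92% of all genes. Col6a4 entered the test only through its control group, since its Scap_ko mean lay below the brightness limit; without it 1 of 26 members, 3.85%, was at that level. Negative differences were seen in 18 of 27 members, 66.7%, against 48.3% of all genes. The median member stood at 93.7% of control, the median of all genes at 100.4%. Log2 differences, always Scap_ko minus Scap_control, ran from -0.66 to 0.42. With the replicate number as a block the members at an unadjusted p of 0.05 were Col6a4, Col12a1 and Col23a1, 11.1% of those tested where 8.7% of all genes were at that level, and none had an adjusted p below 0.452.

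**Figure D1:**
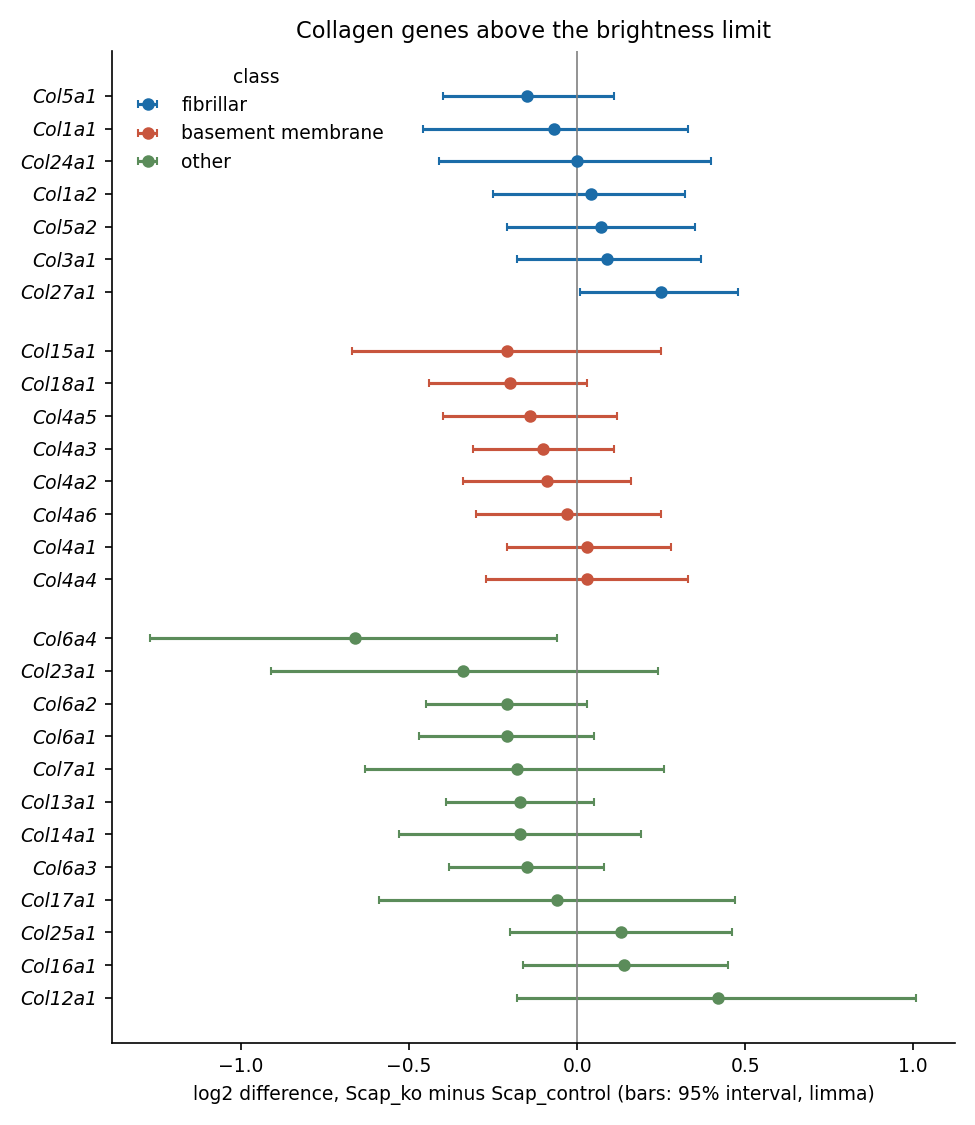
Log2 difference, Scap_ko minus Scap_control, of the 27 tested collagen genes, coloured by class, with the 95% interval from limma (3 arrays a group). The intervals of Col27a1 and Col6a4 leave out 0, before adjustment over all genes; those of the other members include it.

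The class medians lay between 89.0% and 102.6% of control. Negative differences were read in 3 of 7 fibrillar collagens, whose median was 102.6% of control (0.04 on the log2 scale). That median was -0.04 without Scap_control replicate 2 and -0.02 without Scap_ko replicate 1. For basement membrane collagens this was 6 of 8 with a median of 93.5%, and for the others 9 of 12 with 89.0% (-0.17 log2, and -0.09 without Scap_ko replicate 3). As a mean over members, relative to the control average, the fibrillar class lay between -0.11 and 0.07 log2 on control arrays and between -0.04 and 0.08 on Scap_ko arrays, so the groups overlapped. The basement membrane class lay between -0.04 and 0.03 in controls and between -0.14 and -0.04 in Scap_ko, meeting at 1 edge. The other class lay between -0.10 and 0.12 in controls and between -0.17 and -0.09 in Scap_ko, so its groups overlapped too. All genes tested stayed between -0.03 and 0.02 on every array. Differences between classes were not tested.

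**Figure D2:**
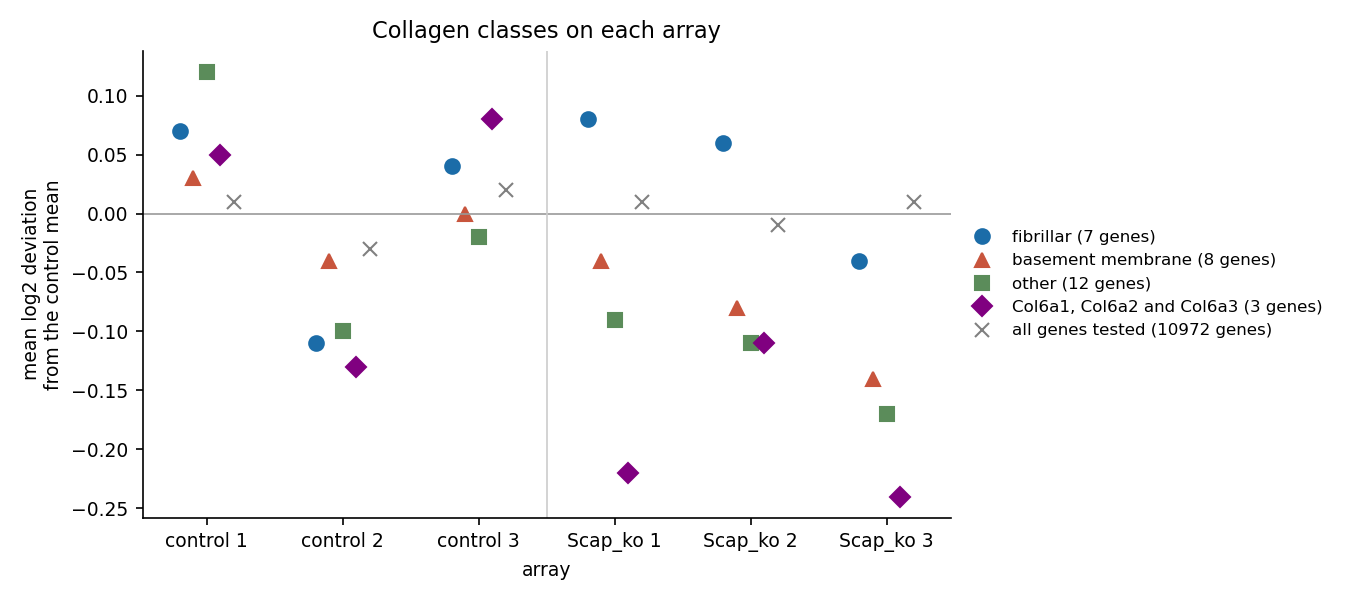
Mean log2 deviation from the control average for each class on each array, with Col6a1, Col6a2 and Col6a3 together and all 10972 genes tested. The points of the groups overlap for the fibrillar class, the other class and the collagen VI genes shown. Those of Col6a1, Col6a2 and Col6a3 are lowest on Scap_ko arrays 1 and 3.

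For the main fibril chains of the lung no difference was detectable with these arrays. Col1a1, a chain of collagen I, the chief tensile fibril, read 30841, 21121 and 22662 on control arrays and 23180, 26888 and 20544 on Scap_ko arrays. The groups overlapped throughout, and control replicate 1 was the highest of the 6. The means were 24875 ± 5224 and 23537 ± 3187 (SD, n = 3), a log2 difference of -0.07 (SE 0.17, limma adjusted p = 0.984), and the 95% interval spans 72.5% to 125.5% of control. Its dimmer probe set turned the sign, at 0.10.

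Col1a2, the partner chain of collagen I, read 52823, 42650.5 and 51522 in controls and 53949, 51487 and 45086 in Scap_ko. The groups overlapped, and the log2 difference was 0.04 (SE 0.12, limma adjusted p = 0.986), with an interval of 84.1% to 125.1% of control. Col3a1, the chain of collagen III that runs with collagen I in lung and vessel walls, read 65168, 53789.7 and 68951 in controls and 68729, 64278 and 66548 in Scap_ko. Its groups overlapped too, and the difference was 0.09 (SE 0.12, limma adjusted p = 0.959), with an interval of 88.5% to 128.8%. For both genes control replicate 2 was the lowest array, and leaving it out turned the sign, to -0.06 and -0.01.

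Collagen V starts fibrils and limits their width, and its 2 tested chains stood on opposite sides of 0. Col5a1 read 7244, 6352 and 6944 in controls and 6153, 6820.3 and 5623 in Scap_ko, overlapping, with means of 6847 ± 454 and 6199 ± 600, or 90.4% of control (SE 0.11 on the log2 scale, limma adjusted p = 0.901), although 1 of its 3 probe sets read 0.07. Col5a2 read 15379.6, 12827 and 16843 in controls and 15919, 16024 and 15128 in Scap_ko, overlapping at 105.1% of control (limma adjusted p = 0.971). Its dimmer probe set, at 9745 ± 316 and 10919 ± 570, had no overlap upward, with a difference of 0.16 (limma adjusted p = 0.929 over 19346 probe sets). The remaining chain, Col5a3, was below the brightness limit, at 423 ± 150 and 345.8 ± 53.8. Col24a1, a minor fibrillar chain, lay just above the limit with a difference of 0.00 (SE 0.17).

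Col27a1 had the highest difference of the tested fibrillar collagens. It encodes collagen XXVII, a short fibrillar collagen best known from cartilage. The control arrays read 5884, 5456 and 5983 and the Scap_ko arrays 6669, 7485 and 6422, so every Scap_ko array lay above every control array. Groups did not overlap upward in 1 of the 27 members, against 6.11% of all genes tested. The means were 5775 ± 280 and 6859 ± 556, a log2 difference of 0.25 (SE 0.10, limma adjusted p = 0.821, interval 100.9% to 139.5% of control). Its second probe set, at 1418 ± 76.4 and 1739 ± 206, also had no overlap, with a difference of 0.29. By replicate number the difference was 0.18, 0.46 and 0.10, and with the replicate block it was no longer at an unadjusted p of 0.05.

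The basement membrane network of collagen IV was close to control. Col4a1 and Col4a2, the chains found in nearly all basement membranes, share a head-to-head promoter region. Col4a1 read 76507, 66542 and 75685 in controls and 80595, 69729 and 73579 in Scap_ko, a log2 difference of 0.03 (SE 0.10, limma adjusted p = 0.986) with an interval of 86.4% to 121.3%. A second Col4a1 probe set read -0.13. Col4a2 read 44217, 36904 and 44178 in controls and 37934, 38175 and 40922 in Scap_ko, a difference of -0.09 (SE 0.11, limma adjusted p = 0.955, interval 78.8% to 111.4%). In both genes the groups overlapped.

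The chains Col4a3, Col4a4 and Col4a5 form the network of alveolar and glomerular basement membranes, and Col4a6 pairs with Col4a5 around smooth muscle and airways. Col4a3 read 3590, 3831 and 3781 in controls and 3353, 3421 and 3677 in Scap_ko, 93.3% of control (SE 0.09, limma adjusted p = 0.923). Col4a4 read 14487, 15065 and 19016 in controls and 15144, 16932 and 17073 in Scap_ko, 101.8% of control (limma adjusted p = 0.992). Both overlapped between groups. Col4a5 read 9904, 11341 and 10474 in controls and 10803, 8819.6 and 9217 in Scap_ko, 90.7% of control (limma adjusted p = 0.917), and Col4a6 stood at 98.1%. The differences of all 6 collagen IV chains lay between -0.14 and 0.03, and none had an unadjusted p under 0.05, against 5.92% of all genes.

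Col18a1 and Col15a1 encode collagens XVIII and XV, which carry sugar side chains in the basement membrane zone; the tail of collagen XVIII is released as endostatin. Col18a1 read 6003, 5465 and 5714 in controls and 4575, 5442 and 4920 in Scap_ko. The groups did not overlap, although the nearest arrays differed by little. Non-overlap downward was seen in 3 of 27 members (Col6a1, Col13a1 and Col18a1), where 5.72% of all genes had it. The Col18a1 difference was -0.20 (SE 0.10, limma adjusted p = 0.865, interval 73.6% to 102.3% of control). Its second probe set, read by probes whose suffix marks possible matches to other transcripts, stood at 3663 ± 38.0 and 2920 ± 279, a difference of -0.33 (limma adjusted p = 0.846 over 19346 probe sets). Col15a1 read 2149.6, 1909.8 and 1551 in controls and 1842, 1851 and 1211 in Scap_ko, 86.6% of control (SE 0.20, limma adjusted p = 0.931), with overlapping groups. Its log2 difference of -0.21 was -0.10 without Scap_control replicate 1, -0.34 without Scap_control replicate 3 and -0.01 without Scap_ko replicate 3.

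Endothelial cells rest on these membranes, and most of their markers read below control. All 6 markers of the list were above the limit. Differences were negative in 5 of 6, all but Kdr (101.0% of control), where 48.3% of all genes tested were negative. The summed signal of the 6 markers ran from 58414 to 64797 in controls and from 53413 to 57950 in Scap_ko. The part of endothelium in the collagen values was not tested. Mesothelial markers, another source of basement membrane, had 3 of 3 tested members negative, with sums of 20770 to 22356 and 18450 to 22198. Alveolar type I markers had 3 of 6 negative and overlapping sums of 155645 to 186841 and 168691 to 180838.

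Collagen VI forms beaded filaments between fibrils and basement membranes from Col6a1, Col6a2 and 1 more chain, mostly that of Col6a3. The 3 chains Col6a1, Col6a2 and Col6a3 read below control, with a median of 86.3%; Col6a4, the other tested member, also did, but it passed the brightness limit only through its controls. Upstream sequence of these genes and of Col27a1, the fibrillar member with the highest difference, is shown because collagen VI and Col27a1 hold the members described at most length. The lines give the 150 bases before the RefSeq start in GRCm38.p6, 5′ to 3′ on the gene's strand, with GC boxes (GGGCGG on either strand) in capitals.
Col6a1, chr10:76726045-76726194, - strand: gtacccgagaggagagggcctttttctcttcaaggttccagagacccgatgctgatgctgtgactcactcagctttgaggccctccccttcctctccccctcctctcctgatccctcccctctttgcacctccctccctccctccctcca
Col6a2, chr10:76623631-76623780, - strand: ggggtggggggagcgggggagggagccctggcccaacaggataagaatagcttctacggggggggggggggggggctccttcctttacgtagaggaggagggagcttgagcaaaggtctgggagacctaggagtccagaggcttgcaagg
Col6a3, chr1:90843972-90844121, - strand: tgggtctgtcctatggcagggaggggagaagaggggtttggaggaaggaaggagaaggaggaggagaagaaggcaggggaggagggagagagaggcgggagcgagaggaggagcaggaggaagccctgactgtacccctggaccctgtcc
Col6a4, chr9:106096692-106096841, - strand: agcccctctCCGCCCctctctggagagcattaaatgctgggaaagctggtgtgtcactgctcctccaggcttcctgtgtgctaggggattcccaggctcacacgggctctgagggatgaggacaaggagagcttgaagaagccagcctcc
Col27a1, chr4:63215262-63215411, + strand: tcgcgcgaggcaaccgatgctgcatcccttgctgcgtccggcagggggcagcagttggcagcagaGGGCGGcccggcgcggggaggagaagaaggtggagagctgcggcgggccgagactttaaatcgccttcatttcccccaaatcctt

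The 5 stretches share a high GC content, between 59.3% and 65.3%, where the median of all promoter windows was 54.0% and that of the collagen windows 62.7%. Of 42 members, 33 had a RefSeq window, and 22 of the 27 tested did. In the 250 bases before the start, the GC box GGGCGG was found in 58.3% of 36 collagen windows and 32.7% of 32851 windows in all, searched on both strands. The CCAAT box (CCAAT) was in 36.1% against 33.8%, and the TATA box (TATAAA) in 13.9% against 12.4%. The sterol regulatory element of the LDL receptor promoter, a site that SREBPs are known to bind, was matched letter for letter in 0 of 36 collagen windows and 0.0731% of all windows. A match describes the letters of a window and no match says only that these letters are not in it. Windows of 1 gene can overlap, as do those of Col4a1 and Col4a2.

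Col6a1 read 41343, 37354 and 46912 in controls and 34163, 37093 and 36793 in Scap_ko, with no overlap. The log2 difference was -0.21 (SE 0.11, limma adjusted p = 0.868, interval 72.1% to 103.4% of control). Col6a2 read 47435, 40939 and 46685 in controls and 37872, 41642 and 36961 in Scap_ko, also -0.21 (SE 0.10, limma adjusted p = 0.859). The groups of Col6a2 overlapped through control replicate 2 and Scap_ko replicate 2. Its second probe set, of a kind whose probes can match related transcripts, had no overlap and a difference of -0.35 (limma adjusted p = 0.858). Col6a3 read 37532, 33473 and 35456 in controls and 32532, 34032 and 29615 in Scap_ko, a difference of -0.15 (SE 0.10, limma adjusted p = 0.899) with overlapping groups.

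Taken by replicate number, the lower readings of Col6a1, Col6a2 and Col6a3 were seen in the pairs numbered 1 and 3. These pairs are assumed, since the labels used here do not say what a number means. Deviations of Scap_control 2 correlated with Scap_ko 1 (0.18) nearly as with Scap_ko 2 (0.2), and another pairing would give other differences. By replicate number the difference was -0.28, -0.01 and -0.35 in Col6a1, -0.32, 0.02 and -0.34 in Col6a2, and -0.21, 0.02 and -0.26 in Col6a3. For Col18a1 it was -0.39, -0.01 and -0.22. In the pair numbered 2 these 4 genes thus stood between -0.01 and 0.02. Without control replicate 2, Col6a1 read -0.29 and Col6a2 -0.28 (limma adjusted p = 0.799 for each), and without control replicate 3, Col6a1 read -0.13.

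Col6a4, a chain that can stand in for Col6a3, had the most negative difference of the tested collagens. It read 936.9, 883.3 and 468.2 in controls and 493.9, 406.7 and 484.7 in Scap_ko. Control replicates 1 and 2 were high, and control replicate 3 lay among the Scap_ko arrays, so the groups overlapped. By replicate number the difference was -0.92, -1.12 and 0.05. The log2 difference was -0.66 (SE 0.26, limma adjusted p = 0.806, interval 41.6% to 95.8% of control). Without control replicate 3 the difference was -0.98 (limma adjusted p = 0.405).

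**Figure D3:**
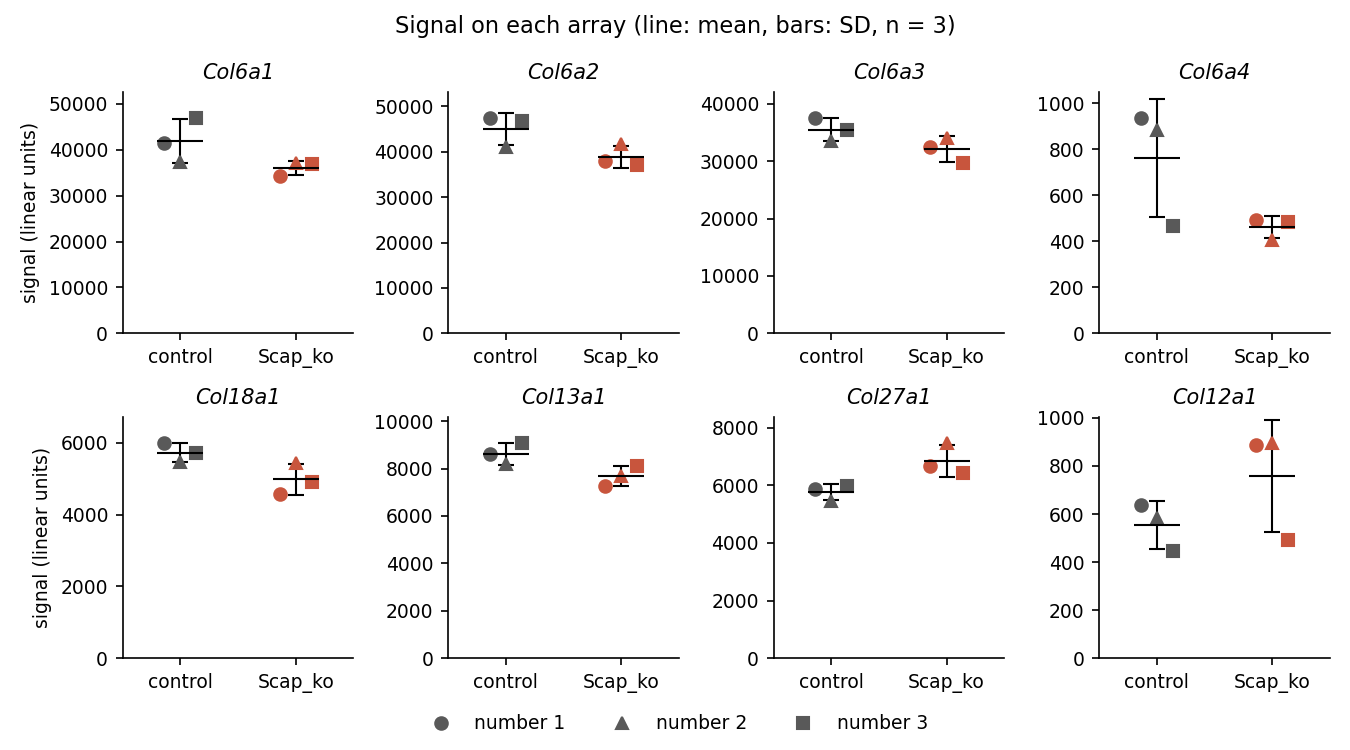
Linear signal of 8 collagen genes on each array, with marker shape for the replicate number, a line for the mean and bars for the SD (n = 3). Scap_ko arrays of Col6a1, Col18a1 and Col13a1 all lie below the controls and those of Col27a1 above; in Col6a4 control array 3 lies among the Scap_ko arrays, and in Col12a1 Scap_ko array 3 lies within the control range.

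Fibroblast markers, from cells that make collagen VI, stood near control. Of 8 such genes 6 were tested, 4 with negative differences, and the median stood at 99.6% of control; summed signals were 85251 to 98420 in controls and 86319 to 97745 in Scap_ko. Pdgfra, a receptor of alveolar fibroblasts, stood at 99.8% and Pdgfrb, a receptor of pericytes, at 99.4%. Smooth muscle markers had a median at 104.0%, with sums of 30563 to 38805 and 35490 to 40236.

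The transmembrane collagens are made as cell surface proteins, and 3 of 4 had negative differences. Col13a1, found at cell adhesion sites, read 8624, 8172 and 9092 in controls and 7274, 7695 and 8107 in Scap_ko. Every Scap_ko array lay below every control, with a log2 difference of -0.17 (SE 0.09, limma adjusted p = 0.88). Col23a1 stood at 79.1% of control (SE 0.25), and its arrays differed by number: 3077, 2345 and 4348 in controls and 2387, 2053 and 3170 in Scap_ko. Each Scap_ko array lay below the control of its number, and with the replicate block the limma adjusted p was 0.452, against 0.901 without. Its second probe set, at 1745 ± 326 and 1538 ± 126, overlapped, with a difference of -0.17 and 0.08 in the pair numbered 2. The dimmest of its 3 probe sets read 1484 ± 146 and 1034 ± 82.9 with no overlap, a difference of -0.52 (SE 0.12, limma adjusted p = 0.635 over 19346 probe sets). Col25a1 stood at 109.5% and Col17a1, a hemidesmosome collagen of basal epithelial cells, at 95.8%.

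Of the collagens that lie on the surface of fibrils, Col12a1 read 636.2, 581.5 and 444.8 in controls and 885.8, 897.3 and 490.8 in Scap_ko. Scap_ko replicate 3 fell within the control range. The difference, 0.42 (SE 0.25, limma adjusted p = 0.889), was the highest of the tested members, and without Scap_ko replicate 3 it was 0.70 (limma adjusted p = 0.467). Blocked on replicate number, the limma adjusted p was 0.452, and each Scap_ko array lay above the control of its number. Its next probe set, below the brightness limit at a mean signal of 454.9, read the other way, at -0.68, with differences of 0.43, -0.10 and -2.37 by replicate number. Col14a1 stood at 88.9% of control and Col16a1 at 110.4%. Col7a1, the anchoring fibril below epithelium, stood at 88.1% (SE 0.19).

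The remaining 15 members were below the brightness limit and were not tested. Among them were the cartilage collagens Col2a1, Col9a1, Col9a2, Col9a3, Col10a1, Col11a1 and Col11a2. Col2a1 read 96.9, 170.2 and 138.2 in controls and 75, 22.4 and 210.6 in Scap_ko, with no order between groups. Airway cartilage markers were mostly dim as well: 7 of 9 lay below the limit, Acan among them, and Sox9 and Hapln1 above. Col8a2, of the short chain network under endothelium, read 431.4, 347.8 and 437.1 in controls and 294, 307.6 and 310.9 in Scap_ko without overlap. Col19a1 also had none, at 183.8 ± 16.8 and 132.9 ± 28.6. Among the brighter genes that were tested, groups did not overlap in 11.8%, in either direction. With no brightness filter Col8a2 and Col19a1 were the collagens at an unadjusted limma p of 0.05 (adjusted p = 0.808 and 0.846), 4.76% of 42 where 5.84% of all genes were at that level. Col20a1 was the nearest below the limit, at a mean signal of 493.3. Col5a3, Col6a5, Col8a1, Col22a1 and Col26a1 made up the rest. Of the 15, 9 had negative and 6 positive differences.

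Several collagen genes are neighbours on a chromosome, with no other coding gene between them in the RefSeq table of GRCm38.p6. Col6a1 and Col6a2 (chromosome 10) both stood at -0.21, and Col18a1, beyond 2 other coding genes, at -0.20. Col3a1 and Col5a2 (chromosome 1) stood at 0.09 and 0.07. The pairs of collagen IV genes stood at 0.03 and -0.09 (Col4a1 and Col4a2), -0.10 and 0.03 (Col4a3 and Col4a4) and -0.14 and -0.03 (Col4a5 and Col4a6). Col6a4 and its neighbour Col6a5, which was below the brightness limit, stood apart at -0.66 and 0.05. Col9a1 and Col19a1, both below the limit, stood at -0.40 and -0.49.

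Further probe sets of the same gene give another reading of the difference. They come from the same 6 arrays, so they share any array effect and are not independent evidence. Of the 27 tested genes, 16 had at least 1 more probe set above the limit, and in 11 of them all probe sets lay on the same side of 0. The 5 with probe sets on both sides were Col1a1, Col4a1, Col4a3, Col4a6 and Col5a1. Dimmer probe sets showed the larger difference for Col27a1, Col6a2, Col18a1, Col1a2, Col3a1, Col4a4 and Col5a2. They showed the smaller one for Col4a5 and Col25a1, and Col23a1 had both. In Col14a1 the differences were -0.17, -0.17 and -0.24. Over all 48 member probe sets above the limit, 4 read lower and 1 higher at an unadjusted p of 0.05, against 5.55% of 19346 probe sets, and 0 passed adjustment.

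**Figure D4:**
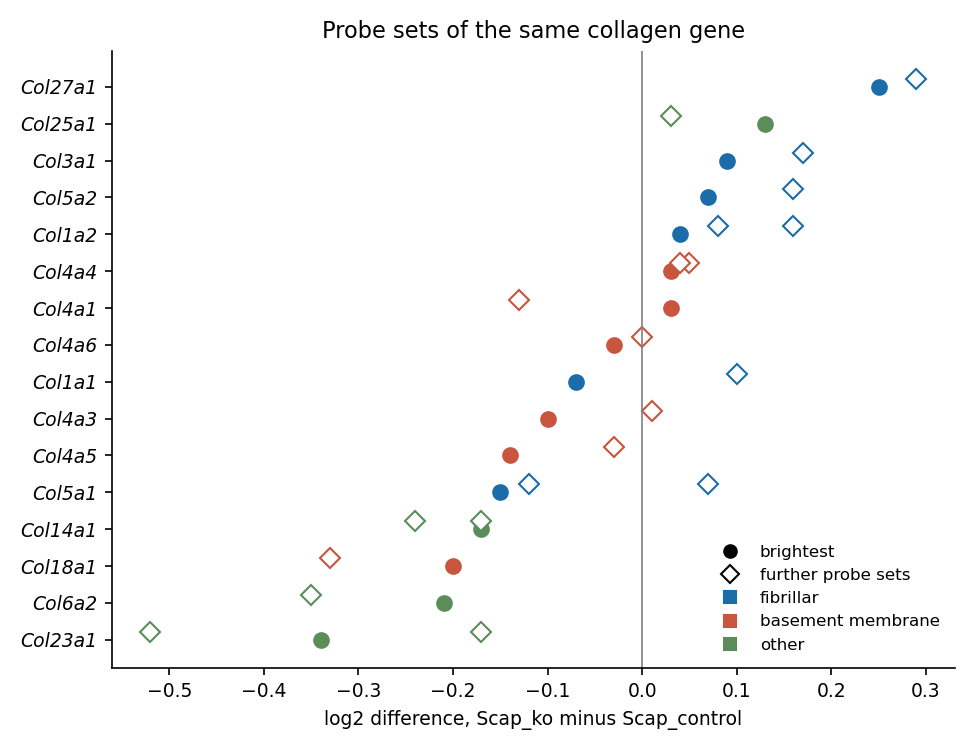
Log2 difference, Scap_ko minus Scap_control, of the brightest (filled) and further (open) probe sets above the brightness limit, for the 16 tested collagen genes with more than 1. Open symbols lie farther from 0 than the filled one in some genes, such as Col27a1, Col3a1 and Col6a2, and nearer in Col4a5 and Col25a1. In 5 genes symbols lie on both sides.

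The proteins that fold, export, cut and crosslink collagen had list medians close to control. Of 73 genes tested in 8 lists, 0 passed the limma test over all genes, and 1 was at an unadjusted p of 0.05 (1.37%, against 5.92% of all genes). Groups did not overlap in 8 genes read higher and 1 lower, where all genes gave 6.11% and 5.72%. Of the folding and modification genes 8 of 16 read negative, around a median of 101.6%. P3h1, a prolyl 3-hydroxylase, stood at 87.1% and P3h2, another of the family, at 113.0%. The 6 tested export genes, which include Mia3, the cargo receptor for large procollagens, were positive, between 0.01 and 0.12.

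Bmp1, the protease that cuts the C-terminal end off fibrillar procollagens, was the gene at an unadjusted p of 0.05. It read 5775 ± 184 in controls and 6804 ± 383 in Scap_ko, with no overlap (log2 difference 0.24, SE 0.09, limma adjusted p = 0.801). Lox, the crosslinking lysyl oxidase, stood at 86.6% of control, and 5 of 7 tested members of that list were negative. Among fibril-binding proteins 7 of 9 were positive, with Ogn at 111.1% and Bgn (biglycan) at 110.8%.

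Of the breakdown list, Timp2 and Timp3, inhibitors of collagen-cleaving proteases, lay on opposite sides, each with no overlap: 10558 ± 525 to 12290 ± 727 for Timp2 and 25531 ± 1340 to 22015 ± 1515 for Timp3. Timp1 (116.8% of control) and Mmp14 (112.0%) also read higher without overlap. Of the 7 tested genes of this list, groups thus did not overlap upward in 3 and downward in 1, where all genes gave 6.11% and 5.72%. Itga1, a collagen receptor subunit, stood at 76.2% (SE 0.20) and Ddr1, a collagen-binding kinase of epithelium, at 117.2%. Among other basement membrane components 9 of 13 read positive, around a median of 102.2%, with the laminin chain Lama3 at 116.5% and perlecan (Hspg2) at 111.4%. The TGF-beta list, a main inducer of collagen genes, had 5 of 10 members on each side, with Tgfbr2 at 112.6% and Smad3 at 109.5%.

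**Figure D5:**
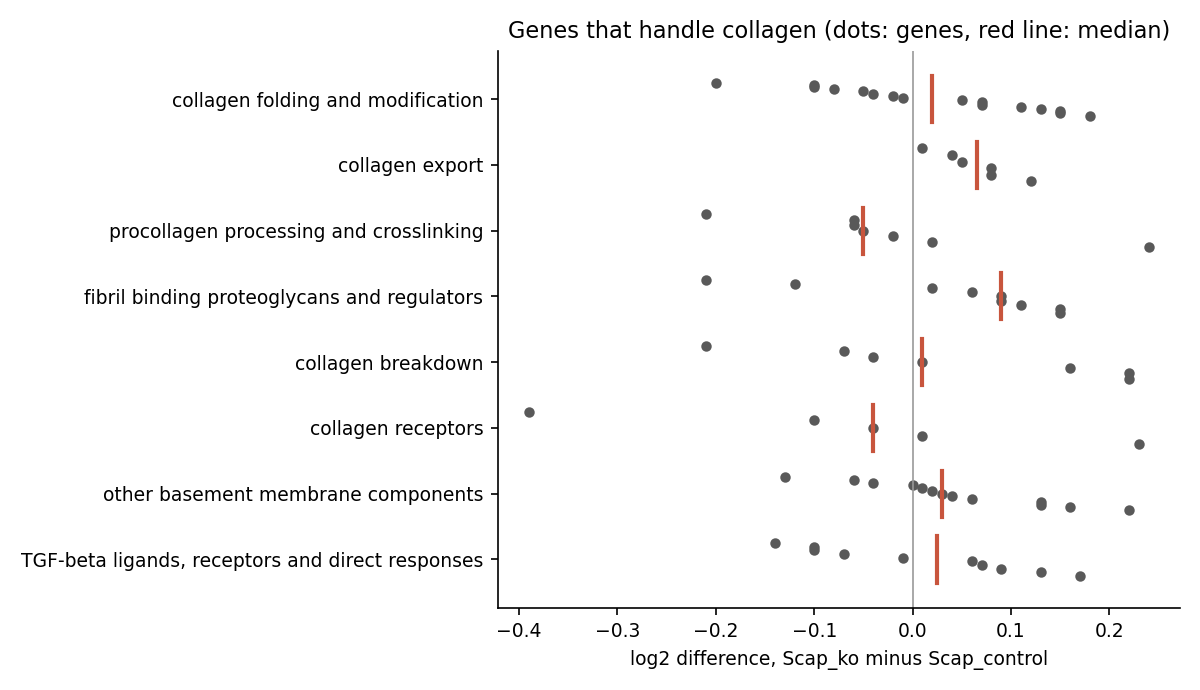
Log2 difference, Scap_ko minus Scap_control, of the tested genes of 8 lists around collagen, with the median of each list as a red line. The medians lie between -0.05 and 0.09.

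Markers of further cell types give context for these values. Alveolar type II markers had 3 of 5 tested members negative, with sums of 206903 to 257321 and 184046 to 213716. The negative members were Sftpa1 (45.5% of control), Abca3 (63.9%) and Sftpb (76.5%), while Sftpc stood at 100.6% and Napsa at 100.3%. Those 3 negative members were at an unadjusted limma p of 0.05, where 3.04% of all genes read lower, and 0 passed adjustment. Leukocyte markers had 2 of 4 negative, with sums of 61025 to 75238 and 39798 to 56399. Lyz2, also made by type II cells, was by far the brightest of them and made up most of these sums. It stood at 57.7% of control, Csf1r at 91.1%, Cd68 at 101.7% and Ptprc at 115.8%. In the list for bone and for heart or skeletal muscle the 3 tested markers, the muscle genes Myh6, Actc1 and Ckm, were positive, and the bone marker Ibsp was dim. The sums over this list were 23956 to 29778 in controls and 24934 to 37230 in Scap_ko. In the list for thymus and oesophagus Krt15 read 1530, 1738 and 1589 in controls and 1045, 920 and 74.7 in Scap_ko. The groups did not overlap, where 5.72% of all genes had no overlap downward. Its log2 difference was -1.96, or 25.7% of control (SE 0.91, limma adjusted p = 0.849). By replicate number the difference was -0.55, -0.92 and -4.41, so Scap_ko replicate 3 weighed most. Krt5, Cd3e and Rag1 of this list were dim. The part of these cells in the collagen values was not tested.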

How the data were processed

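Total RNA of whole lung was purified on RNeasy columns and labelled with biotin, per the labels' protocols. The authors deposited 1 table of intensity values, linear signals of 45101 probe sets on 6 arrays. The submitters' processing notes name RMA, but the values are linear, reach 0.2 and are not quantile normalized; neither the software behind them nor a background correction is named in the labels used here. Array medians lay between 490.8 and 530.4. Without detection calls a dim signal may be background, and precision is limited by having 6 arrays.

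The 64 control probe sets were left out. The platform annotation gave 1 symbol to 34945 probe sets, several to 932 and none to 9160. Log2 was taken without a pseudocount, each gene was read from its brightest probe set, and 7221 genes below the median of all probe sets were set aside. Groups came from the sample titles and entered limma 3.58.1 (lmFit, then eBayes; R 4.3.3; 4 residual degrees of freedom), with Benjamini-Hochberg adjustment over 10972 genes; the steps were tested on simulated data. The numbers 1 to 3 were taken to pair the samples, because deviations from the group means correlated at 0.17, 0.20 and 0.43, although Scap_control 2 with Scap_ko 1 reached 0.18; the labels used here do not say what a number means. Alternatives were the replicate block, quantile normalization, other filters, a pseudocount of 50, other probe sets, a mean-variance trend and leaving out arrays.

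The collagen genes, their classes, the companion lists and the marker lists were chosen with earlier results of these data known. By rule, values on every array are given for Col1a1, Col1a2, Col2a1, Col3a1, Col4a1 to Col4a4, Col6a1 to Col6a3 and, per class, the 4 members of smallest p; up to 2 genes of smallest p are named per companion list. Col12a1, Col23a1, Col8a2 and Col19a1, and Timp1 and Mmp14 of the breakdown list, were described after their values were seen. The genes whose log2 signal over the 6 arrays was most like the class mean were Zbtb22 (fibrillar, Pearson r = 0.997), Nif3l1 (basement membrane, 0.994) and Polr1d (other, 0.987), a description chosen from 10972 genes.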

Additional observations from a re-analysis of the deposited data

How the results depend on the processing

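No collagen gene passed the adjusted threshold under any of the alternatives run. The number of collagen genes at an unadjusted p of 0.05 was 2 as reported. With the filter at the 75th percentile it was 1 of 20 members tested, 5.0% where 6.27% of all genes were at that level. It was 3 of 16 with the second brightest probe set (18.8%, against 5.58%). With the mean of all probe sets or the mean-variance trend it was 3 (11.1%, against 5.68% and 5.84%). When single arrays were left out it ranged from 0 to 3, where all genes gave 4.65% to 6.98%. It was 0 without Scap_control replicate 1 or Scap_ko replicate 1, and 1 without Scap_control replicate 3 or Scap_ko replicate 2. Without both arrays numbered 3, an alternative chosen after seeing the data, it was 3 (11.1% of members, 7.59% of all genes). With the replicate block 3 collagen genes were at that level (11.1%, against 8.7% of all genes), and the block changed no adjusted call of a collagen gene. Over all genes, 1 passed the adjusted threshold as reported, 0 with the replicate block, the mean of all probe sets, the mean-variance trend, no filter, the filter at the 75th percentile or without both arrays numbered 3, 2 with the second brightest probe set (4967 genes), and 0 to 1 when single arrays were left out.

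The median difference of fibrillar collagens, 0.04, was 0.13 with the second brightest probe set, 0.15 without both arrays numbered 3, -0.00 with no filter, and -0.04 to 0.09 when single arrays were left out, negative without Scap_control replicate 2 (-0.04) or Scap_ko replicate 1 (-0.02); that of basement membrane collagens, -0.10, was -0.01 with the second brightest probe set. That of the other collagens, -0.17, ranged from -0.20 to -0.09 over the alternatives run and was -0.09 without Scap_ko replicate 3.

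Of 18 genes followed in detail, 7 changed sign in at least 1 alternative. Col1a1 read 0.02 with the mean of all probe sets and 0.10 with the second brightest, and 0.10 and 0.03 without Scap_control replicate 1 and Scap_ko replicate 3. Col4a1 read -0.05 and -0.13 with the same probe set choices, -0.03 without Scap_control replicate 2 and -0.02 without Scap_ko replicate 1. Col4a3 read 0.01 with the second brightest probe set. Without Scap_control replicate 2, Col3a1 read -0.01, Col5a2 -0.04, Col1a2 -0.06 and Col4a4 -0.02; Col1a2 read -0.02 without Scap_ko replicate 1, and Col4a4 -0.05 and -0.01 without Scap_control replicate 1 and Scap_ko replicate 3. When single arrays were left out, the highest or lowest values on the other side were 0.17 for Col3a1, 0.16 for Col5a2, -0.18 for Col1a1, 0.11 for Col1a2 and 0.08 for Col4a1. The cause was not tested. Col6a1, Col6a2, Col6a3, Col6a4, Col18a1, Col13a1 and Col27a1 kept their sign in each alternative that could be run; Col6a4 ranged from -1.02 to -0.48.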
